A study of Homo sapiens with 9 samples.

Results

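The genes described here make, destroy, carry or sense adenosine: 9 of the 26485 gene symbols counted in MV4;11 cells, a human acute myeloid leukaemia line. They are CECR1 (the deposited, older name of ADA2), ADA, ADK, ENTPD1, NT5E, PNP, SLC29A1, ADORA2A and ADORA2B. The 9 genes were chosen by name, as the route from released nucleotide to adenosine receptor, with results of these same libraries already known, among them the high CECR1 level of K148R cells. Their comparisons with K148R cells are therefore given as levels and differences without a p-value. Adjusted p-values are given for K148Q against parental cells and for neighbouring genes that are not among the 9. The neighbouring lists were also chosen with earlier results known, and part of their named genes for large called changes. All p-values given here thus describe these libraries and are no independent test. All 9 were in the table, and 7 passed the filter on low counts, which kept 12845 genes. NT5E and ADORA2A did not pass it, and ENTPD1 passed it only through its K148R libraries.

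RNA sequencing covered 3 genotypes of the transcription factor MYC, with 3 libraries each: MV4;11 cells whose MYC carries K148R, MV4;11 cells whose MYC carries K148Q, and the parental MV4;11 cells. K148R puts arginine and K148Q puts glutamine in place of a lysine. No group received a treatment, and RPMI was the medium of all. The sources used here do not say how the substitutions were made, whether each mutant line is 1 clone, or whether replicates are separate cultures, so p-values measure the spread between these libraries, which may be technical.

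Outside cells, ENTPD1 (CD39) strips ATP and ADP to AMP and NT5E (CD73) strips AMP to adenosine. Adenosine deaminase turns adenosine into inosine, with ADA acting mainly inside cells and at their surface and ADA2 as a secreted enzyme typical of monocytes and macrophages. Inside cells ADK returns adenosine to AMP and PNP splits inosine and guanosine to their bases, while the transporter SLC29A1 (ENT1) lets adenosine cross the membrane in both directions. ADORA2A and ADORA2B are G protein coupled receptors that raise cAMP when adenosine binds, and in immune cells this signal restrains activation.

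Library totals ran from 13747087 to 18938391 counts. K148Q replicate 3 stood apart from its group, with chi-square values, each divided by its degrees of freedom, of 16.8 and 17.3 against the other K148Q libraries. Those differed from each other by 1.33, K148R pairs by 2.98 to 5.15 and parental pairs by 1.53 to 1.61. Results that this library decides are given with and without it. MYC mRNA was 382, 379 and 375 CPM in K148R, 489, 491 and 439 CPM in K148Q and 335, 329 and 336 CPM in parental cells, and gene counts do not show the codon. The myeloid genes CD33, FLT3, CD4 and SPI1 were expressed in all groups, and CD3E, MS4A1 and EPCAM had 0 counts in every library. The whole list of T and NK cell markers summed to 27.4 to 28.8 CPM in K148R, 25.7 to 28.5 CPM in K148Q and 51.7 to 57.4 CPM in parental libraries, nearly all of it NKG7. The B cell list summed to 6.50 to 7.32, 3.35 to 5.996 and 3.28 to 5.004 CPM in the same groups, with PAX5 among its expressed genes. The stromal and epithelial list summed to 184 to 195 CPM in K148R, 215 to 221 CPM in K148Q and 109 to 114 CPM in parental libraries, nearly all of it PECAM1, which myeloid cells also express. In bulk RNA, fewer cells of a type and less RNA per cell cannot be told apart. Levels in CPM are reads scaled to the library size after TMM correction in edgeR, and fold changes are log2 with their standard error (SE).

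K148R cells carried far more mRNA of the deaminase CECR1 and of the receptor ADORA2B than K148Q or parental cells, more of ADA (1.94-fold over parental cells) and less of ADK and SLC29A1. ENTPD1 was read almost only in K148R libraries. K148Q cells differed less from parental cells: CECR1, ADA and ADK were lower and PNP and ADORA2B higher. NT5E and ADORA2A were at or near 0 counts in every library. Of the 7 tested genes, 5 were higher and 2 lower in K148R than in parental cells, where 75.1% of all tested genes were called (37.8% higher, 37.3% lower). Between K148R and K148Q cells 4 were higher and 2 lower in K148R, where 71% of all tested genes were called (36.6% higher, 34.5% lower). Nothing is read from these counts, since the genes were chosen with them known. In K148Q against parental cells 2 rose and 3 fell of 7, beside 53.3% of all tested genes (27% higher, 26.3% lower), so that 5 calls of 7 is not far from the background. As a description, the median log2 fold change of the 7 was 0.96 for K148R against parental, 0.16 for K148Q against parental and 1.29 for K148R against K148Q cells. Over all tested genes it was -0.0035, -0.0072 and 0.017 in the same 3 comparisons. The mutant comparisons share the parental libraries and are not independent of each other. The shares of all tested genes given here are also the background for every list count below.

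**Figure D1:**
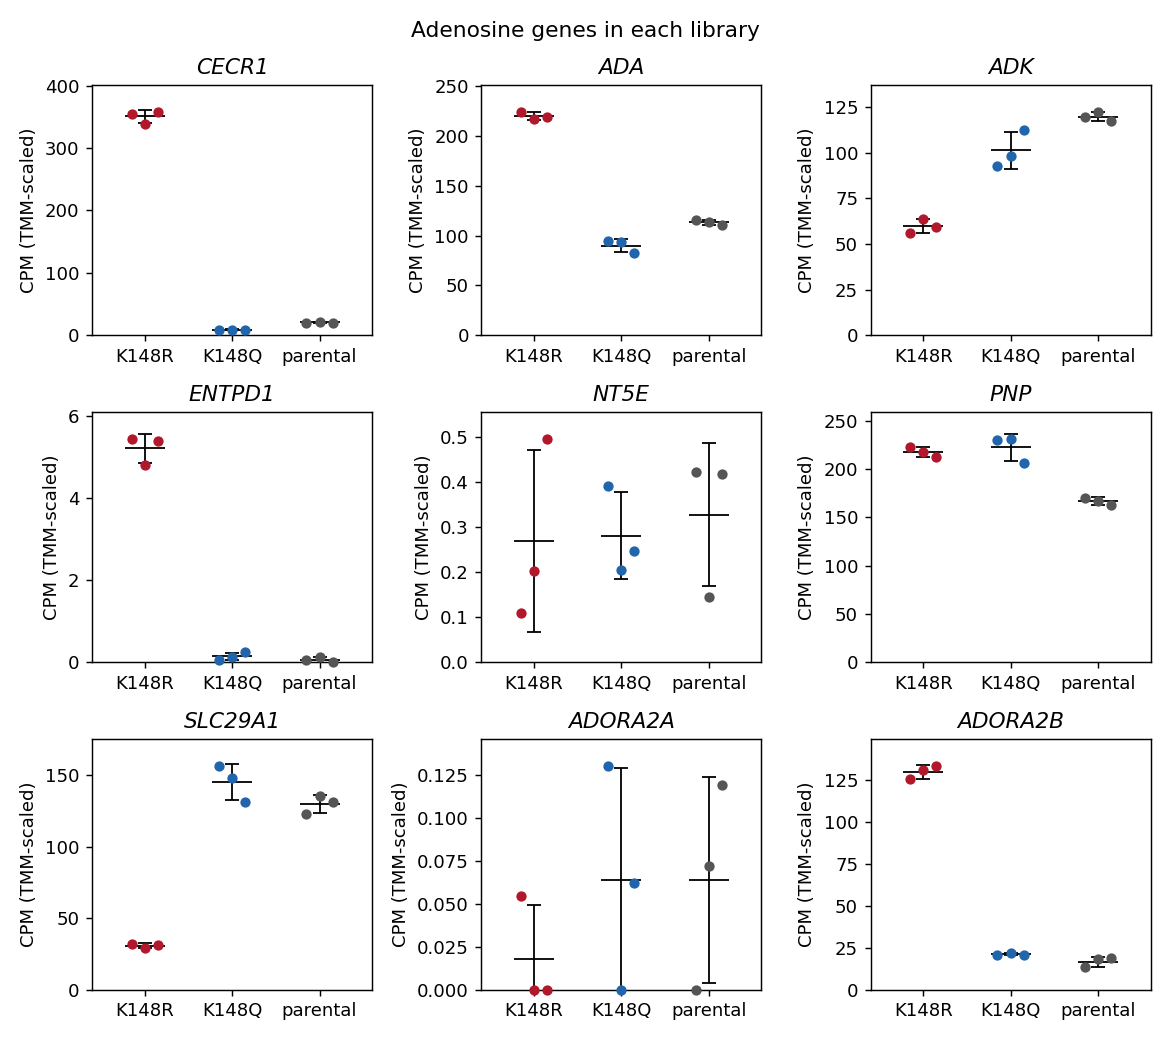
Level of each of the 9 adenosine genes in each library, as CPM on a linear axis scaled to each gene, with K148R, K148Q and parental cells from left to right. CECR1 sat between 339 and 358 CPM in K148R libraries, above every other library, while NT5E and ADORA2A stayed under 1 CPM throughout.

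CECR1 (chromosome 22, 17178790 to 17258235, minus strand, GRCh38), the gene of the secreted deaminase, had 355, 339 and 358 CPM in K148R libraries, 9.26, 8.76 and 9.30 CPM in K148Q libraries and 20.4, 21.8 and 19.8 CPM in parental libraries. The 3 groups did not overlap: K148R was high, parental low and K148Q lowest, and replicates within a group lay close together. The means were 351 ± 10.2 CPM in K148R, 9.10 ± 0.302 CPM in K148Q and 20.7 ± 0.996 CPM in parental cells (SD, n = 3 each). K148R cells were higher than parental cells by 4.09 on the log2 scale (SE 0.064), a 17.0-fold difference, and 189 of 12845 tested genes had a larger log2 fold change. K148R cells were higher than K148Q cells by 5.27 (SE 0.071), or 38.5-fold. The substitutions thus stood on opposite sides of the parental level. In K148Q cells CECR1 fell by 1.18 on the log2 scale relative to parental cells (SE 0.076, edgeR quasi-likelihood, adjusted p = 1.2e-08), with all K148Q libraries under all parental ones.

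ADA (chromosome 20, 44619522 to 44652233, minus strand), the deaminase whose loss causes severe combined immunodeficiency, had 224, 217 and 219 CPM in K148R, 94.4, 93.2 and 82.4 CPM in K148Q and 115, 114 and 111 CPM in parental libraries. Its groups did not overlap and stood in the same order as those of CECR1, over a much smaller span. ADA averaged 220.1 ± 3.69 CPM in K148R, 90.02 ± 6.59 CPM in K148Q and 113 ± 2.47 CPM in parental cells (SD, n = 3 each). It was higher in K148R than in parental cells by 0.96 (SE 0.060) and than in K148Q cells by 1.29 (SE 0.061). In K148Q cells ADA fell by 0.33 on the log2 scale relative to parental cells (SE 0.061, adjusted p = 0.00037), and by 0.26 without K148Q replicate 3.

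The balance between the 2 deaminase mRNAs differed between genotypes. Per length, as RPKM over the union of annotated exons, the ratio of CECR1 to ADA was 0.519, 0.511 and 0.537 in K148R libraries, 0.0321, 0.0308 and 0.0370 in K148Q libraries and 0.0579, 0.0626 and 0.0588 in parental libraries. CECR1 mRNA was therefore a small fraction of ADA mRNA in K148Q and parental cells and about 0.52 of it in K148R cells. The sources used here do not name the annotation used for counting, so ratios between genes are approximate, while the same ratio can be compared between genotypes.

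DPP4 (CD26), the surface protein that anchors ADA to the cell, moved with the same order of groups. It had 12.5, 12.9 and 14.5 CPM in K148R, 2.02, 2.26 and 2.67 CPM in K148Q and 7.30, 6.29 and 6.97 CPM in parental libraries, without overlap. DPP4 rose in K148R against parental cells by 0.95 on the log2 scale (adjusted p = 4.8e-06) and fell in K148Q against parental cells by 1.56 (adjusted p = 1.2e-06). Its difference between K148R and K148Q cells was 2.51 (adjusted p = 7.4e-10). ADAL, a deaminase of methylated AMP, fell in K148R against parental cells by 0.39 (adjusted p = 0.0091) and had a log2 fold change of -0.21 in K148Q against parental cells (adjusted p = 0.17). Of the 4 genes of this deaminase and anchor list, 3 were higher and 1 lower in K148R, and 3 lower in K148Q, than in parental cells. ADA and CECR1 are 2 of the 4, so the count is not independent of them.

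ADK (chromosome 10, 74151185 to 74709303, plus strand), the kinase that competes with ADA for adenosine inside the cell, had 56.2, 63.7 and 59.5 CPM in K148R, 92.8, 98.3 and 112.5 CPM in K148Q and 119.6, 122 and 117 CPM in parental libraries. Parental cells were highest and K148R lowest, with no overlap between groups. ADK was lower in K148R than in parental cells, with a log2 fold change of -1.002 (SE 0.076), and lower than in K148Q cells, at -0.76 (SE 0.076). In K148Q cells it fell by 0.24 on the log2 scale relative to parental cells (SE 0.074, adjusted p = 0.013). This call rested on single libraries: without K148Q replicate 1 the difference was -0.18 (adjusted p = 0.073), and without parental replicate 2 it was -0.23 (adjusted p = 0.051).

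With ADA higher and ADK lower, the RPKM ratio of ADA to ADK was 4.46, 3.81 and 4.10 in K148R, 1.14, 1.06 and 0.818 in K148Q and 1.08, 1.04 and 1.05 in parental libraries. K148R libraries lay above all others, and K148Q and parental libraries overlapped. The low K148Q value belongs to replicate 3, the library that stood apart.

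**Figure D2:**
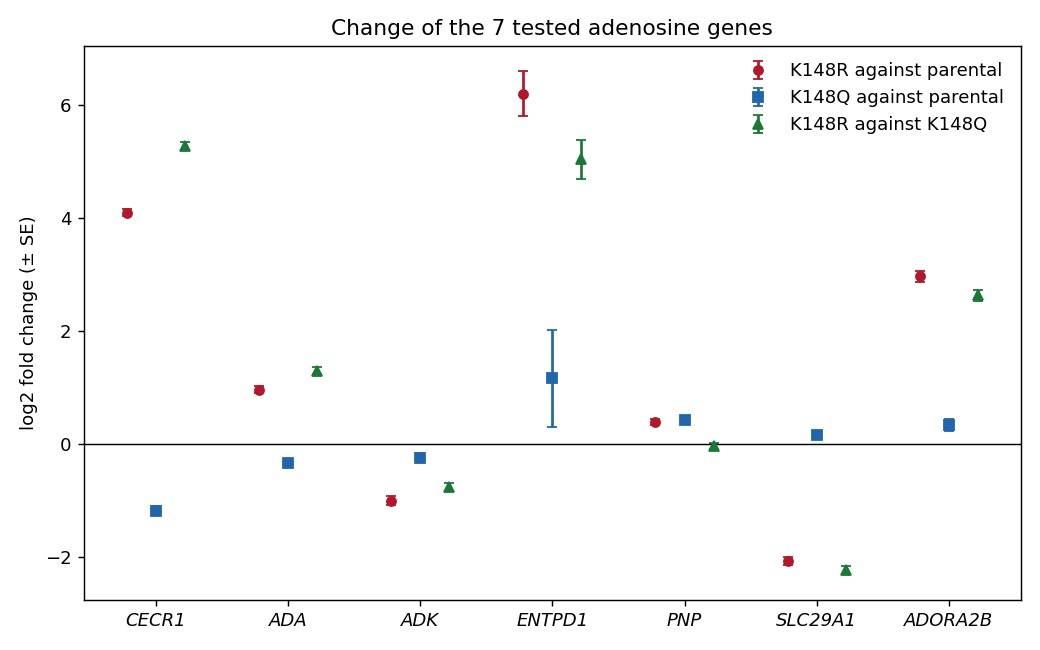
Log2 fold change of the 7 tested adenosine genes in K148R against parental, K148Q against parental and K148R against K148Q cells, with bars of 1 SE. CECR1, at 4.09 and -1.18 against parental cells, lies on opposite sides of 0 in the 2 substitutions, while PNP lies at 0.38 and 0.41.

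ENTPD1 (chromosome 10, 95711779 to 95869695, plus strand), which starts the breakdown of extracellular ATP, was counted 100, 71 and 87 times in K148R libraries, 1, 2 and 4 times in K148Q libraries and 1, 2 and 0 times in parental libraries. Only the K148R libraries held more than a few reads, at 5.21 ± 0.349 CPM (SD, n = 3). The pooled counts were 258 in K148R, 7 in K148Q and 3 in parental cells. Scaled to library size, K148R exceeded parental cells 82.4 times (95% exact interval 27.9 to 402) and K148Q cells 34.5 times (16.5 to 86.6). These intervals cover counting error only and are no test of the genotypes, since ENTPD1 was chosen and passed the filter with its K148R level. The fitted log2 fold change against parental cells, 6.19, became 7.11 without parental replicate 2, which holds 2 of the 3 parental reads. In K148Q against parental cells the count ratio was 2.39 (0.545 to 14.3) and the fitted difference 1.16 (SE 0.86, adjusted p = 0.28), so a difference was not detectable at this depth. ENTPD1 shares 6.51% of its exonic bases with an antisense gene, and no source says whether counting used the strand.

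NT5E (chromosome 6, 85449584 to 85495791, plus strand), the enzyme that completes the extracellular route to adenosine, was counted 2, 3 and 8 times in K148R, 6, 3 and 4 times in K148Q and 7, 2 and 7 times in parental libraries. The groups overlapped, and the pooled count ratio was 0.778 for K148R against parental (0.344 to 1.73), 0.832 for K148Q against parental (0.368 to 1.84) and 0.935 for K148R against K148Q cells (0.399 to 2.19). At 13, 13 and 16 reads in the pooled K148R, K148Q and parental libraries, changes within these intervals were not detectable at this depth. A fit without the filter on low counts called neither NT5E nor ADORA2A in any of the 3 comparisons, with an adjusted p of 0.84 for NT5E and of 1 for ADORA2A in K148Q against parental cells (edgeR, 18427 genes).

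Other surface enzymes that act on nucleotides were sparse too: of 11 listed, ENTPD1 and NT5E included, 4 passed the filter. In K148R against parental cells 2 were higher and 1 lower, and in K148Q against parental cells 3 were higher and none lower, with list medians of 0.80 and 0.97 (all genes: -0.0035 and -0.0072). ENTPD1 is 1 of the 2 higher in K148R, and it passed the filter only through those libraries. Its uncalled K148Q difference of 1.16, on 7 against 3 reads, enters the K148Q median. ACPP, a phosphatase that can hydrolyse AMP at the membrane, had 81.8, 85.1 and 81.5 CPM in K148R, 75.6, 73.7 and 74.1 CPM in K148Q and 30.4, 30.9 and 32.2 CPM in parental libraries. ACPP rose in K148R by 1.41 (adjusted p = 3.6e-11) and in K148Q by 1.26 (adjusted p = 8.6e-10) against parental cells, and both mutants stood clear of the parental libraries. CD38, which consumes NAD at the cell surface and feeds another route to adenosine, was counted 0, 0 and 1 times in K148R libraries, against 397, 367 and 399 times in K148Q and 287, 201 and 265 times in parental libraries. The ratio of K148R to parental counts was 0.0013 (95% exact interval 3.2e-05 to 0.0071). In K148Q cells CD38 rose by 0.67 (adjusted p = 0.00011) against parental cells. BST1, a relative of CD38, rose in K148Q against parental cells by 0.78 (adjusted p = 5.1e-05), with 14.6 ± 1.55 CPM in K148Q and 8.44 ± 0.618 CPM in parental cells (SD, n = 3 each), and had a log2 fold change of 0.19 in K148R against parental cells (adjusted p = 0.17).

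PNP (chromosome 14, 20468954 to 20477094, plus strand), which acts on the inosine that the deaminases make, had 223, 217 and 212 CPM in K148R, 229.8, 231 and 206 CPM in K148Q and 170.5, 167 and 163 CPM in parental libraries. Both mutants lay above the parental libraries and overlapped each other. PNP was higher in K148R than in parental cells by 0.38 (SE 0.056), and it rose in K148Q against parental cells by 0.41 (SE 0.056, adjusted p = 2.6e-05). The log2 fold change of K148R against K148Q cells was -0.03 (SE 0.056), a value that turned to 0.0047 under 1 alternative scaling and to -0.10 without K148Q replicate 3. PNP shares 11.9% of its exonic bases with an antisense gene, whose reads cannot be told apart without strand.

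SLC29A1 (chromosome 6, 44219505 to 44234151, plus strand), the equilibrative transporter that also takes up nucleoside drugs such as cytarabine, had 32.2, 29.3 and 31.0 CPM in K148R, 156, 148.03 and 131 CPM in K148Q and 123, 135 and 132 CPM in parental libraries. K148R libraries were low without overlap, and K148Q and parental libraries overlapped. SLC29A1 was lower in K148R than in parental cells, with a log2 fold change of -2.07 (SE 0.077), and lower than in K148Q cells, at -2.23 (SE 0.077). Between K148Q and parental cells its log2 fold change was 0.16 (SE 0.070, adjusted p = 0.067), short of the threshold. Without K148Q replicate 3 it was 0.24 (adjusted p = 0.00011).

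Of the 9 genes, 7 matched a RefSeq table of start sites (GRCh38.p14), with 13 starts, and CECR1 and ADORA2A did not. The 250 bases before each start were searched for CACGTG, the canonical E-box that MYC and its partner MAX bind, which reads the same on both strands. One start held it, the upstream start of SLC29A1, 245 bases before the start; of 35116 windows of this length in the table, 6.34% held the motif. The SLC29A1 stretch is shown because it holds that match, and the ADA stretch as that of a deaminase, without one. ADK, lower in K148R cells as SLC29A1 was, held none at either of its 2 starts. Both are printed up to the annotated exons, 5′ to 3′ on the gene's strand, with the motif in capitals, and lie at chr6:44219365-44219504 (plus) and chr20:44651743-44651901 (minus).
SLC29A1: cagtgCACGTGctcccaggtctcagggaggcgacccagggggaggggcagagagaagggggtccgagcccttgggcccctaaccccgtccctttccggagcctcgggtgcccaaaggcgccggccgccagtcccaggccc
ADA: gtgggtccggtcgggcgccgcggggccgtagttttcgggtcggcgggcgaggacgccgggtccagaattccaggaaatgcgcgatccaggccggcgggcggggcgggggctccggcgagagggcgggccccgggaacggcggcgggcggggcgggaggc
A match describes these letters only, and binding was not measured.

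Among the other nucleoside transporters, 4 of 7 including SLC29A1 passed the filter, of which 2 were higher and 2 lower in K148R than in parental cells, and 1 higher and 1 lower in K148Q. The list medians were -0.13 and 0.16. SLC28A3, a sodium-driven transporter that concentrates nucleosides, had 12.5, 13.6 and 13.5 CPM in K148R, 18.7, 16.8 and 18.1 CPM in K148Q and 2.65, 2.89 and 2.68 CPM in parental libraries. It rose in both mutants against parental cells, by 2.27 in K148R (adjusted p = 3.0e-10) and by 2.70 in K148Q (adjusted p = 2.5e-10). SLC29A3, the lysosomal equilibrative transporter, rose in K148R against parental cells by 1.81 (adjusted p = 1.2e-08), with 32.8 ± 0.689 CPM in K148R and 9.35 ± 1.60 CPM in parental cells (SD, n = 3 each). In K148Q against parental cells the log2 fold change of SLC29A3 was 0.17 (adjusted p = 0.36), and 0.32 without K148Q replicate 3 (adjusted p = 0.025). SLC29A4, a membrane transporter also known for monoamines, was counted 10 times in K148R, 31 times in K148Q and 79 times in parental libraries together. It fell against parental cells in K148R (adjusted p = 5.6e-05) and in K148Q (adjusted p = 0.011). The K148Q call was lost without parental replicate 3 (adjusted p = 0.067). SLC29A4 passed the filter on low counts only with its parental libraries, so both calls are conditioned on a level they test. Without K148R replicate 3, its log2 fold change against parental cells was -4.10 in place of -3.00.

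ADORA2B (chromosome 17, 15944917 to 15975746, plus strand), the low-affinity receptor that responds when adenosine is abundant, had 126, 132 and 134 CPM in K148R, 20.6, 21.8 and 21.0 CPM in K148Q and 13.3, 18.2 and 18.7 CPM in parental libraries. K148R libraries were high, and the K148Q libraries lay just above the parental ones, with no overlap. ADORA2B was higher in K148R than in parental cells by 2.96 (SE 0.10), or 7.80-fold, and than in K148Q cells by 2.62 (SE 0.10), or 6.17-fold. It rose in K148Q against parental cells by 0.34 (SE 0.11, adjusted p = 0.017). The small K148Q difference rested on parental replicate 1, without which it was 0.19 (adjusted p = 0.089).

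ADORA2A (chromosome 22, 24417879 to 24442360, plus strand), the high-affinity receptor of the pair, was counted 1, 0 and 0 times in K148R, 2, 0 and 1 times in K148Q and 0, 1 and 2 times in parental libraries. It was thus at the limit of detection in all 3 groups, and 56.8% of its exonic bases are shared with a readthrough gene, so its counts are uncertain. The receptors that lower cAMP were also sparse. ADORA1 had 0.707, 1.02 and 1.11 CPM in K148R, 0.456, 0.410 and 0.496 CPM in K148Q and 5.73, 4.99 and 4.89 CPM in parental libraries. It fell against parental cells in both mutants, by 2.47 in K148R (adjusted p = 5.0e-08) and by 3.49 in K148Q (adjusted p = 2.8e-08). ADORA3 was counted 20, 15 and 18 times in K148R, 1, 1 and 1 times in K148Q and 0, 4 and 0 times in parental libraries, a K148R to parental ratio of 12.7 (95% exact interval 4.67 to 48.3) that was called higher (adjusted p = 0.00013). ADORA3, like ENTPD1, passed the filter on low counts only through its K148R libraries, so that call is conditioned on the level it tests. Its fitted log2 fold change of 3.54 depended on single parental libraries. It was 2.95 without parental replicate 1 or without parental replicate 3, and 7.12 without parental replicate 2, which holds every parental read. Of the 3 tested adenosine receptors, ADORA2B included, 2 were higher and 1 lower in K148R, and 1 higher and 1 lower in K148Q, than in parental cells.

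**Figure D3:**
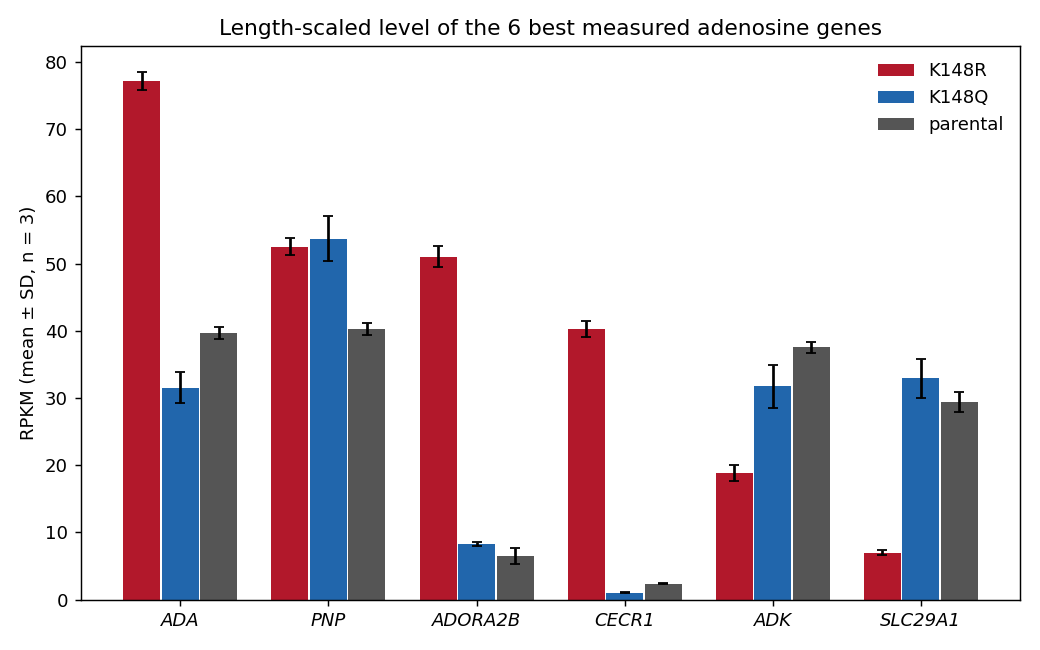
Mean RPKM of the 6 best measured adenosine genes, with SD bars over 3 libraries, in K148R, K148Q and parental cells. ADA leads in K148R cells at 77.2 RPKM and PNP leads in K148Q and parental cells, at 53.7 and 40.3 RPKM.

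On the length-scaled level, the order of the 9 genes differed between genotypes. In K148R cells ADA was highest at 77.2 RPKM, followed by PNP at 52.5 and ADORA2B at 51.1, whose libraries overlapped, then by CECR1 at 40.3, ADK at 18.8, SLC29A1 at 7.002 and ENTPD1 at 0.748. In K148Q cells PNP led at 53.7 RPKM. SLC29A1 at 33.0, ADK at 31.8 and ADA at 31.6 followed, each overlapping its neighbour, then ADORA2B at 8.28 and CECR1 at 1.05. In parental cells PNP at 40.3 and ADA at 39.7 overlapped, followed by ADK at 37.6, SLC29A1 at 29.5, ADORA2B at 6.56 and CECR1 at 2.37. NT5E, at 0.0594, 0.0621 and 0.0723 RPKM in K148R, K148Q and parental cells, and ADORA2A stayed at the bottom in each group, with ENTPD1 beside them in K148Q and parental cells. The RPKM ratio of ADORA2B to SLC29A1, the receptor against the transporter, was 7.31 ± 0.516 in K148R, 0.253 ± 0.0241 in K148Q and 0.222 ± 0.0310 in parental cells (SD, n = 3 each).

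Of 31 listed cAMP genes downstream of the adenosine receptors 24 were tested, of which 9 rose and 8 fell in K148R and 6 rose and 10 fell in K148Q against parental cells, with medians of 0.064 and -0.15. The K148R counts are near the background of all tested genes, 37.8% higher and 37.3% lower, and say nothing particular of the list. In K148Q the 6 higher are near the background of 27%, while the 10 lower of 24 are a larger share than 26.3%. ADCY1 and PDE4C, lower in both mutants, passed the filter on low counts only with their parental libraries. ADCY1 had 19 reads in K148Q and 47 in parental libraries together, and PDE4C had 18 and 57. Their lower calls are thus conditioned on a level they test, and nothing is read from that larger share. Between K148R and K148Q cells 12 were higher and 3 lower in K148R, with a median of 0.24. Among all tested genes 36.6% were higher and 34.5% lower there, with a median of 0.017. Whether the list departs from the background was not tested. PDE4B, a phosphodiesterase that degrades cAMP, had 21.8, 24.6 and 24.0 CPM in K148R, 0.0652, 0.205 and 0.372 CPM in K148Q and 2.23, 2.46 and 2.20 CPM in parental libraries. It rose in K148R by 3.35 (adjusted p = 3.4e-11) and fell in K148Q by 3.35 (adjusted p = 1.1e-06) against parental cells, again with the groups in the order of CECR1. Without K148Q replicate 3, which holds 6 of the 10 K148Q reads, the K148Q difference was -4.01. PRKAR2B, a regulatory subunit of the cAMP-dependent kinase, showed that order too, at 65.6 ± 3.57 CPM in K148R, 5.11 ± 1.70 CPM in K148Q and 14.3 ± 1.24 CPM in parental cells (SD, n = 3 each). It rose by 2.19 in K148R (adjusted p = 1.9e-09) and fell by 1.48 in K148Q (adjusted p = 5.3e-06) against parental cells. PDE3B rose in both, by 1.59 in K148R (adjusted p = 3.3e-10) and by 0.68 in K148Q (adjusted p = 1.4e-05).

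Of 17 receptors listed by a P2 name, 6 were not tested. Not all 17 are known to sense nucleotides, and P2RY8, which rose in both mutants, is among the exceptions. Of the 11 tested, 9 rose and 2 fell in K148R and 4 rose and 2 fell in K148Q against parental cells, where 37.8% and 27% of all tested genes were higher. One of the 9, P2RY14, passed the filter only through K148R, with no reads in K148Q and parental cells. The K148R median was 0.90, also with P2RY14 at the bound that 3 counts allow, and the K148Q median over the 10 receptors with reads in either group was 0.097. P2RX1, an ATP-gated channel, had 77.8, 79.9 and 72.2 CPM in K148R, 20.4, 22.03 and 16.9 CPM in K148Q and 19.5, 21.6 and 21.0 CPM in parental libraries. It rose in K148R against parental cells by 1.89 (adjusted p = 1.1e-10) and had a log2 fold change of -0.07 in K148Q (adjusted p = 0.59). P2RY6, a receptor for UDP, also rose in K148R, by 1.11 (adjusted p = 1.2e-08). P2RY2, a receptor for ATP and UTP, rose in K148R by 0.90 (adjusted p = 3.4e-09) and in K148Q by 0.76 (adjusted p = 1.1e-07).

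Inside the cell, genes that build purines anew were lower in K148R cells. All 13 listed genes of de novo purine synthesis were tested: in K148R against parental cells 12 fell and none rose, with a median of -1.14, and in K148Q against parental cells 8 fell and 2 rose, with a median of -0.18. PAICS, which catalyses middle steps of the pathway, had 181, 186 and 192 CPM in K148R, 465, 485 and 538 CPM in K148Q and 749, 742 and 727 CPM in parental libraries. PAICS fell by 1.99 in K148R (adjusted p = 2.7e-13) and by 0.58 in K148Q (adjusted p = 7.3e-07) against parental cells. IMPDH2, which commits IMP to guanine nucleotides, fell by 1.87 in K148R (adjusted p = 3.0e-13) and by 0.18 in K148Q (adjusted p = 0.011). Of 8 tested genes of purine salvage and breakdown, PNP among them, 3 were higher and 5 lower in K148R and 2 higher and 4 lower in K148Q than in parental cells, with medians of -0.56 and -0.18. HPRT1, which salvages hypoxanthine and guanine, fell in K148R by 1.73 (adjusted p = 3.7e-07). SAMHD1, which degrades deoxynucleotides, rose in K148R by 1.30 (adjusted p = 2.4e-12), with 947 ± 32.8 CPM in K148R and 384 ± 1.71 CPM in parental cells (SD, n = 3 each).

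Adenosine also arises inside the cell from AMP and from S-adenosylhomocysteine. Of 7 tested genes of the cytosolic nucleotidase and AHCY families, 1 rose and 4 fell in K148R against parental cells. In K148Q against parental cells 1 fell, and the medians were -0.25 and -0.056. These families were listed by name, and not each member is known to form adenosine, so the counts do not describe that step as such. The single K148Q call became 3 calls without K148Q replicate 3. AHCY, the hydrolase that frees adenosine from S-adenosylhomocysteine, was 299.7 CPM in K148R, 285 CPM in K148Q and 296 CPM in parental cells and was not called (adjusted p = 0.82 in K148R and 0.48 in K148Q against parental cells); it is named after its values were seen. NT5C3B, a cytosolic nucleotidase, fell by 1.43 in K148R (adjusted p = 1.4e-08) and by 0.83 in K148Q (adjusted p = 1.2e-05). Of 8 tested AMP deaminases and adenylate kinases, 2 rose and 6 fell in K148R and 3 rose and 4 fell in K148Q. The medians were -0.81 and -0.10. Among all tested genes 37.8% were higher and 37.3% lower in K148R, and 27% and 26.3% in K148Q. AK4, lower in both mutants, passed the filter on low counts only through its parental libraries. It had 9 reads in K148R, 3 in K148Q and 106 in parental libraries together. AMPD2, a deaminase that turns AMP to IMP, rose in K148R against parental cells by 0.74 (adjusted p = 3.4e-07). AMPD3, another AMP deaminase, fell in K148Q against parental cells by 1.83 (adjusted p = 1.5e-07). It also fell in K148R by 0.39 (adjusted p = 0.014), a call lost without parental replicate 1 (adjusted p = 0.087).

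**Figure D4:**
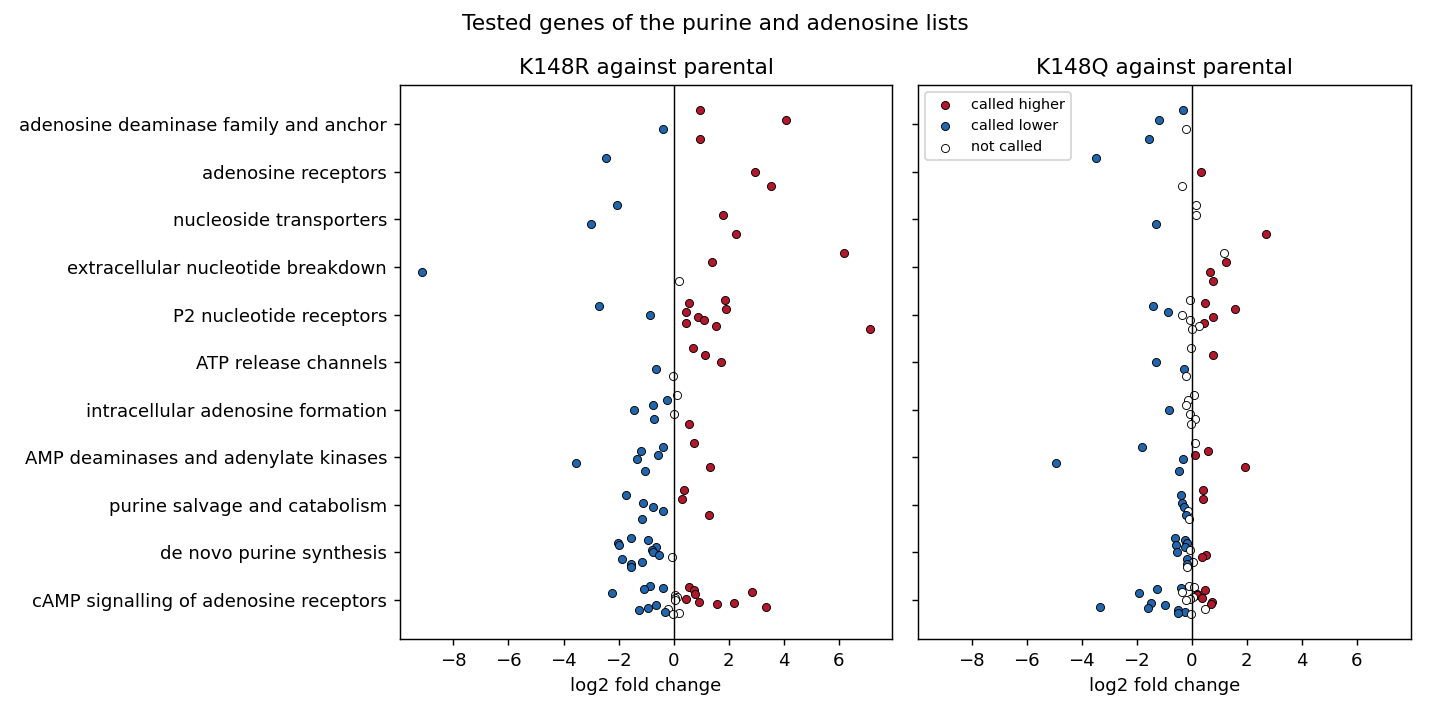
Log2 fold change of each tested gene of the purine and adenosine lists, in K148R against parental cells on the left and in K148Q against parental cells on the right, with 1 point a gene coloured by its call at an adjusted p under 0.05. In the left panel 12 of 13 genes of de novo purine synthesis lie left of 0 and are called, and 9 of 11 P2 receptors lie right of it, beside 37.3% lower and 37.8% higher among all tested genes.

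Tested markers of monocytes, the cells known for secreted ADA2, were higher in K148R cells, as CECR1 was, and mixed in K148Q cells. Of 17 listed markers 11 were tested, and all 11 rose in K148R against parental cells, while 7 rose and 1 fell in K148Q. Their summed level was 2838 to 2943 CPM in K148R, 949.9 to 1047 CPM in K148Q and 425 to 433 CPM in parental libraries. LYZ, lysozyme, had 1649 CPM in K148R, 491 CPM in K148Q and 161 CPM in parental cells, and CD36, a scavenger receptor, had 412, 74.7 and 14.9 CPM in the same 3 groups. The defining monocyte and macrophage genes CD14, FCN1, VCAN, CD163, FCGR3A and MRC1 were at or near 0 in all groups, with 17 CD14 reads in K148R, 0 in K148Q and 6 in parental libraries. In K148Q cells the summed level of the list was above the parental level while CECR1 was below it. LYZ and CD68, at 491 and 312 CPM, made up most of that K148Q sum. MS4A7, the 1 marker that fell in K148Q, had its groups in the order of CECR1. It had 63.1 CPM in K148R, 15.1 CPM in K148Q and 26.3 CPM in parental cells. ITGAM had a log2 fold change of -0.19 in K148Q against parental cells (adjusted p = 0.13). Granulocyte precursor markers summed to 1548 to 1651 CPM in K148R, 2345 to 2725 CPM in K148Q and 569.9 to 579.9 CPM in parental libraries. The part of these markers in the results for CECR1, ENTPD1 and ADORA2B was not tested.

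Genes with the expression pattern most like that of CECR1 were sought among 9066 genes with a mean of at least 10 CPM, by the Euclidean distance between log2 CPM values centred over the 9 libraries. The nearest were DST (distance 0.632), MMP25 (0.645), CX3CR1 (0.743), CXCL8 (0.766) and FIBCD1 (0.880). DST averaged 56.7 CPM in K148R, 1.19 CPM in K148Q and 2.74 CPM in parental cells, and CX3CR1, the fractalkine receptor, 87.0 CPM in K148R, 2.01 CPM in K148Q and 3.68 CPM in parental cells. For ADA the nearest were TMC8 (0.142), SAT2 (0.152), CTDSP2 (0.183), NSMF (0.190) and LILRB4 (0.201). These distances describe the 9 libraries, in which 3 groups set most of the pattern.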

How the data were processed

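The authors deposited raw read counts per gene symbol, 1 column per library, without normalisation. Per the submitters' processing notes, the build was GRCh38 and the tools were featureCounts 1.5.2, HISAT2 2.0.5 and FastQC 0.11.7. Their roles and options, the annotation and the strand used in counting: not given in the sources used here. Each group was taken from the genotype in the labels.

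From these counts, genes were filtered with filterByExpr by group, scaled with TMM and tested with edgeR 4.0.16 (R 4.3.3, robust quasi-likelihood F test, all 9 libraries in 1 fit), with Benjamini-Hochberg adjustment over 12845 genes and calls at an adjusted p under 0.05. The steps were tested on simulated data in which few genes changed, all genes had the same spread and no library stood apart. These data differ in each of these points, so that test does not cover the calls given here. RPKM used union exon lengths from GENCODE v29. Count ratios have exact conditional 95% intervals. Intervals and floors (3 counts over a group) cover counting error only.

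The members and lists were chosen with earlier results of these data known. Named were all 9 members, every tested gene of the 4 nearest lists (surface nucleotide breakdown, nucleoside transporters, adenosine receptors, deaminases) and, from the other purine, receptor and cAMP lists, up to 3 called genes per comparison with the largest change and at least 10 CPM in the higher group, of which part are printed. Replicate numbers, whose meaning the labels do not give, were not used as pairs in the main fit. The correlation of same-numbered deviations ranged from -0.024 to 0.27, and 2 of 9 were over 0.1. Both were between K148R and K148Q cells, at 0.14 for replicate 1 and 0.27 for replicate 3. Differently numbered libraries of these groups had correlations from -0.24 to 0.17. Whether same-numbered mutant libraries were handled together was not tested. Alternatives were other scalings, DESeq2 1.42.0, limma 3.58.1 (voom), other filters, fits of the compared groups alone, no robust estimation, a replicate block and leaving out each library.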

Additional observations from a re-analysis of the deposited data

How the results depend on the processing

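Over 19 alternative settings (3 scalings, DESeq2, limma-voom, 2 filters, fits of the compared groups alone, no robust estimation, a replicate block and each library left out), no member's called log2 fold change changed sign. Of 398 values of members 392 kept their side of the threshold, and 1 of these changed sign: PNP in K148R against K148Q cells, which was not called, was 0.0047 under upper quartile scaling. The other 6 were ADK and ADORA2B (lost without single libraries), PNP in K148R against K148Q cells (gained, at -0.10, without K148Q replicate 3) and SLC29A1 in K148Q against parental cells (gained without K148Q replicate 3, and with library totals alone at 0.18, adjusted p = 0.042). With the replicate block, 9821 genes were called in K148R against parental cells, 7262 in K148Q against parental cells and 9410 in K148R against K148Q cells, against 9649, 6848 and 9126 without it, and the members called stayed at 7, 5 and 6. The numbers share no known batch. Without K148Q replicate 3, the counts of all genes were 10473, 8402 and 9736 in the same comparisons and those of members 7, 6 and 7. No scaling moved the median of all genes by over 0.1 on the log2 scale. Depth limits NT5E, ADORA2A and, outside K148R cells, ENTPD1.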

Other observations

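Genes that release ATP from cells, upstream of ENTPD1, were mixed. Of 5 tested, 3 rose and 1 fell in K148R and 1 rose and 2 fell in K148Q against parental cells, with medians of 0.73 and -0.23. CALHM2, an ATP-permeable channel, averaged 41.0 ± 3.79 CPM in K148R, 5.05 ± 0.412 CPM in K148Q and 12.3 ± 1.73 CPM in parental cells (SD, n = 3 each). It rose in K148R by 1.73 (edgeR adjusted p = 2.6e-09) and fell in K148Q by 1.29 (adjusted p = 2.4e-06) against parental cells, so its groups stood in the order of CECR1. PANX1, pannexin, rose in K148R by 0.73 (adjusted p = 5.6e-06), and SLC17A9, which loads ATP into vesicles, fell in K148R by 0.63 (adjusted p = 2.5e-06) and in K148Q by 0.30 (adjusted p = 0.0043).

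Nucleoside diphosphatases of internal membranes were read in all 3 groups. The list holds ENTPD4, ENTPD5, ENTPD6 and ENTPD7, relatives of ENTPD1, and also CANT1, which is not of that family. All 5 were tested, of which 2 rose and none fell in K148R and 2 rose and 1 fell in K148Q against parental cells. CANT1 was 1 of the 2 that rose in K148R, by 0.51, and 1 of the 2 that rose in K148Q, by 0.44. Without K148Q replicate 1 the K148Q calls were 5 in place of 3. ENTPD4, a Golgi enzyme, rose in K148R by 0.82 (adjusted p = 1.5e-07), with 88.6 CPM in K148R and 50.2 CPM in parental cells. ENTPD6 rose in K148Q by 0.74 (adjusted p = 1.3e-05) and had a log2 fold change of 0.04 in K148R (adjusted p = 0.71).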
